A study of Mus musculus with 10 samples.

Results

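Cathepsins are proteases of lysosomes and endosomes, and the levels of 9 of their transcripts were followed through mouse MLL-AF9 leukaemias that lacked Eed or Ezh2. The 9 genes were Ctse, Ctsd, Ctsb, Ctsl, Ctss, Ctsz, Ctsc, Ctsh and Ctsa, chosen by symbol, and 20 probe sets of 37762 with 1 gene symbol belonged to them. They made up 9 of the 20564 genes measured. Ctse was chosen because of its level in the Eed-null arrays, so its difference between those arrays and the others is given as a description with no test.

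The leukaemias were made with a retrovirus carrying the MLL-AF9 fusion, a driver of acute myeloid leukaemia, and GFP. Cells of leukaemic colonies that had been replated were put into irradiated C57B/6 mice, and pIpC was then given to turn on Cre, whose activity YFP marked. Bone marrow cells positive for both GFP and YFP were sorted from leukaemic mice in every group, so the fusion, the pIpC, the transplantation and the Cre marker were common to all groups. There were 3 Eed-null, 4 Ezh2-null and 3 WT arrays, and the labels call them biological replicates. Eed and Ezh2 are core subunits of Polycomb repressive complex 2, which places repressive methyl marks on histone H3. The labels do not name the promoter of Cre, the age of the mice, or which colony or donor lay behind each array, so the donors' genetic make-up and the genotype cannot be told apart here, and p-values measure only the spread between these arrays. With 3 or 4 arrays per group, the number of arrays limits how precise the values are.

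All cathepsins are made as inactive precursors that enter the secretory pathway, and most reach lysosomes by a mannose 6-phosphate tag and become active in acid. Cathepsins D and E are aspartic proteases related to pepsin, cathepsins B, L, S, Z, C and H are cysteine proteases of the papain family, and cathepsin A is a serine carboxypeptidase. In myeloid cells they digest proteins taken up from outside, cut the invariant chain of class II molecules and activate the serine proteases of granules. Cathepsin E differs from the others in lying mainly in endosomes, and immune cells of C57BL/6 mice are known to hold less of it than those of some other inbred strains.

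Values are log2 of the deposited array intensity, and each compares arrays for 1 probe set. The median array intensity over all probe sets lay between 137 and 144. Replicate arrays correlated at 0.956 to 0.978 among Eed-null, 0.975 to 0.989 among Ezh2-null and 0.959 to 0.978 among WT arrays. Eed itself stood at 8.69, 8.34 and 8.67 in Eed-null arrays, against 10.79, 10.24, 10.40 and 10.30 in Ezh2-null and 10.52, 10.20 and 10.65 in WT arrays, and it fell by 1.89 in the Eed-null arrays compared with WT (adjusted p = 0.00797 by limma). Ezh2 stood at 9.19, 9.21, 9.36 and 8.91 in Ezh2-null arrays, against 10.25, 9.35 and 10.44 in WT arrays, a difference of −0.84 that did not pass the threshold, and whether the probes lie in the deleted part was not tested. Eed-null replicate 1 had the lowest mean of 19 monocyte markers, 7.95, and WT replicate 3 the lowest mean of 12 granulocyte markers, 11.01, against 12.28 to 13.20 on the other arrays. Differences of group means without these arrays were computed after seeing the data and carry no test unless one is given.

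Ctse, the endosomal aspartic protease, had a higher intensity in every Eed-null array than in any other array. Its log2 intensity was 10.25, 10.91 and 10.69 in Eed-null arrays. It was 7.92, 5.99, 6.69 and 7.66 in Ezh2-null arrays and 7.42, 7.71 and 6.26 in WT arrays. The lowest Eed-null array lay above the highest of the other 7. Taken 1 group at a time, 7.49% of all genes lay wholly above WT and 6.81% wholly above Ezh2-null arrays. The share of genes above all 7 was not computed. The means were 10.62 ± 0.34 in Eed-null (SD, n = 3), 7.07 ± 0.89 in Ezh2-null (SD, n = 4) and 7.13 ± 0.77 in WT arrays (SD, n = 3). That is a log2 difference of 3.49 (SE 0.51), or 11.2-fold, for Eed-null against WT, and of 3.55 (SE 0.47), or 11.7-fold, for Eed-null against Ezh2-null. These values chose the gene and carry no test.

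Within each array, Ctse ranked between percentiles 88.5 and 92.7 of all genes in the Eed-null group, between 24.1 and 58.2 in Ezh2-null and between 29.0 and 54.7 in WT arrays. Whether the signal in Ezh2-null and WT arrays lay above background was not tested. The gene had 1 probe set, so no other probe set could be set beside it. Without WT replicate 3, the dimmest of that group, the difference for Eed-null against WT was 3.05, the lowest over 19 alternatives, and the highest was 3.78. The comparison of Ezh2-null with WT was not used to choose Ctse, and there the difference was −0.06 (SE 0.47, limma adjusted p = 1.00), with the 2 groups overlapping.

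**Figure D1:**
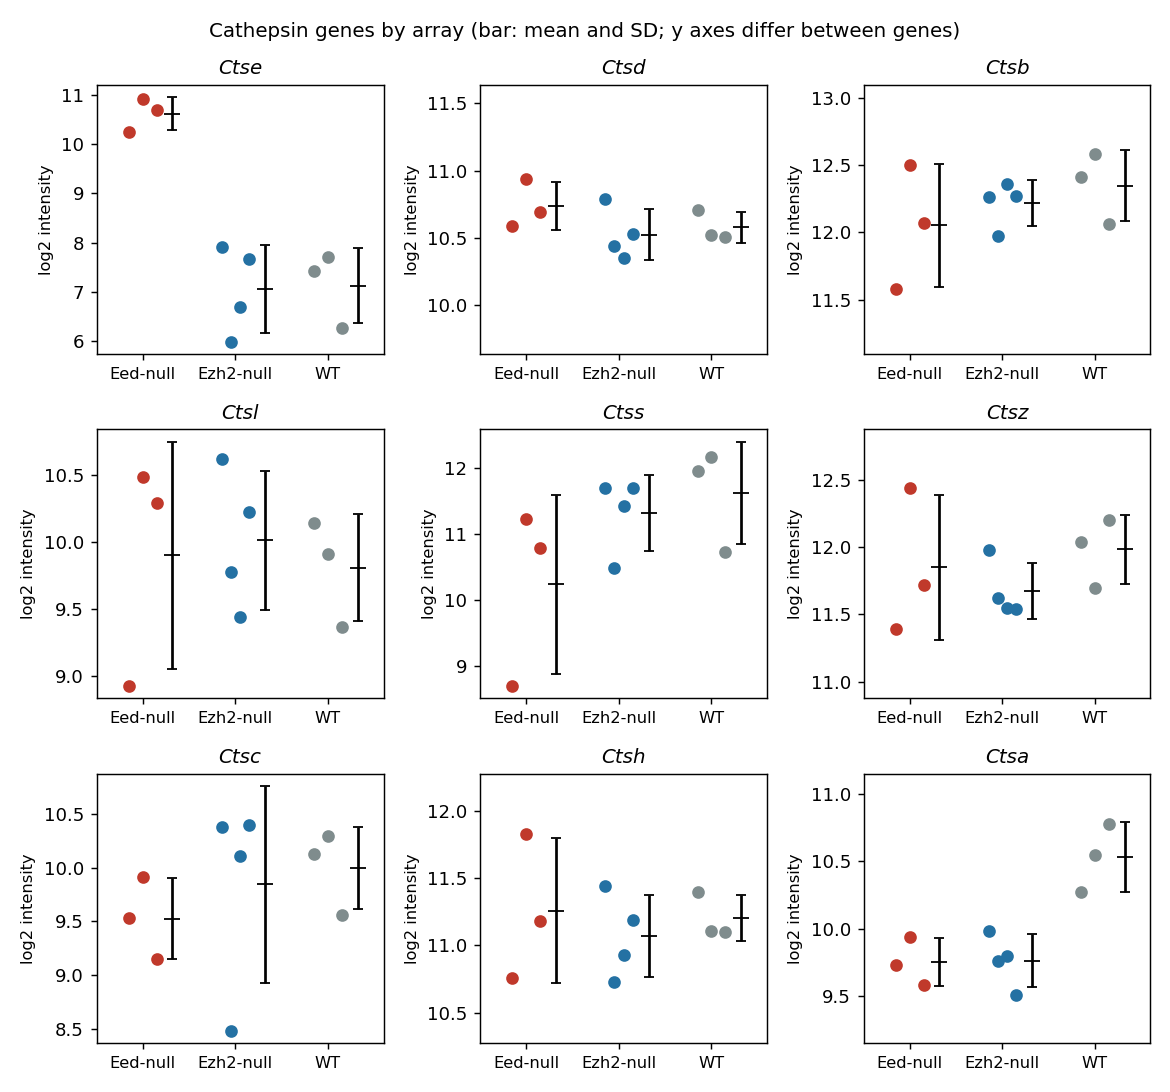
Log2 intensity of the 9 cathepsin genes on each array (points), with the mean and SD of the Eed-null (n = 3), Ezh2-null (n = 4) and WT (n = 3) groups, each gene on its own y axis. The 3 Eed-null arrays lie above the other 7 for Ctse, the 3 WT arrays lie above the other 7 for Ctsa, and the groups overlap for the other 7 genes.

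Markers of cell types in which Ctse is known, or that the sorted cells could hold, were read beside it. The mean over 10 erythroid markers was 6.66 to 6.84 in Eed-null, 6.64 to 6.81 in Ezh2-null and 6.54 to 6.80 in WT arrays, and the mean over 9 dendritic cell markers was 7.21 to 7.26, 7.10 to 7.31 and 6.99 to 7.21 in the same groups. The mean over 9 B cell markers was 6.80 to 6.95 in Eed-null, 6.54 to 6.76 in Ezh2-null and 6.63 to 6.76 in WT arrays. The mean over 9 eosinophil, basophil and mast cell markers was 6.71 to 7.03 in Eed-null, 6.19 to 6.34 in Ezh2-null and 6.11 to 6.996 in WT arrays. Limma called none of these markers in Eed-null against WT or Ezh2-null arrays, where 0.131% and 0.0778% of all genes were called. Against WT, 5 of the 9 eosinophil, basophil and mast cell markers were positive and 4 negative, with a median difference of 0.11, beside 11266 positive of all 20564 genes. There 1 B cell marker and 1 eosinophil, basophil or mast cell marker had an unadjusted p under 0.05, with 0 among the erythroid and dendritic cell markers, where 10.4% of all genes had. Against Ezh2-null arrays, 8 of the 9 eosinophil, basophil and mast cell markers were positive, beside 11925 of all 20564 genes. There 3 of the 9 had an unadjusted p under 0.05, with 2 of the B cell, 1 of the dendritic cell and 1 of the erythroid markers, where 9.18% of all genes had. Prg2, a granule protein of eosinophils that had the largest difference of its list in both, stood at 10.58, 10.89 and 9.76 in Eed-null, 7.22, 7.78, 8.59 and 9.08 in Ezh2-null and 6.10, 6.74 and 10.36 in WT arrays. Its differences were 2.68 for Eed-null against WT (3.99 without WT replicate 3) and 2.25 against Ezh2-null, with limma adjusted p of 0.368 and 0.495, and it was high in WT replicate 3, where Ctse was lowest of the WT arrays. Their part in the level of Ctse was not tested, and a different share of cells of a type and a different amount of RNA per cell cannot be told apart in sorted bulk samples.

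Ctse lies on chromosome 1, Eed on chromosome 7 and Ezh2 on chromosome 6. Of the 10 protein-coding genes nearest to Ctse, 9 were measured. Limma called none of them in Eed-null against WT, where 0.131% of all genes were called. Of the 9, 1 had an unadjusted p under 0.05 there, where 10.4% of all genes had. The log2 differences of the 9 neighbours ran from −0.41 for Rab7b, a small GTPase of late endosomes, to 0.52 for Rassf5, a Ras effector, with a median of 0.13. Rassf5 lay wholly above WT in Eed-null arrays, at 10.79 to 11.21 against 10.19 to 10.66, where 7.49% of all genes did. It did so in Ezh2-null arrays too, at 10.69 to 10.93, where 455 of all 20564 genes did. Fam72a lay wholly below WT in Eed-null arrays, at 6.69 to 7.16 against 7.19 to 7.25, where 5.31% of all genes did. Ctse was chosen for its level and its neighbours were not, and a cause near the gene was not tested.

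The gene with the profile over the 10 arrays nearest to that of Ctse was Stard10, a lipid transfer protein, with a root mean square difference of 0.723 on the log2 scale after centring each gene on its mean. Rspo1, a secreted activator of Wnt signalling, followed at 0.767 and Serpine2, an inhibitor of serine proteases, at 0.776. The class I genes H2-Q7 and H2-Q8, which are near-identical in sequence and may share signal, followed at 0.798 and 0.857. The median over all genes was 1.73. These 5 share with Ctse a high level in the Eed-null arrays, which is what the measure selects. Stard10 lies on the chromosome of Eed with 82 protein-coding genes between them, Serpine2 on that of Ctse, Rspo1 on chromosome 4 and the H2-Q genes on chromosome 17. The nearest other cathepsin was Ctsd, at rank 2140 of all genes.

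Ctsd, the lysosomal aspartic protease and nearest relative of Ctse among the 9, had similar values in all groups. Its log2 intensity was 10.59, 10.94 and 10.69 in Eed-null, 10.79, 10.44, 10.35 and 10.53 in Ezh2-null and 10.71, 10.52 and 10.51 in WT arrays. The groups overlapped. The differences were 0.16 (SE 0.17) for Eed-null against WT, −0.05 (SE 0.16) for Ezh2-null against WT and 0.22 (SE 0.16) for Eed-null against Ezh2-null, and none passed the test.

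Across the 8 cathepsins other than Ctse, limma called 0 in Eed-null against WT, where 0.131% of all 20564 genes were called, and 2 of 8, Ctss and Ctsa, had an unadjusted p under 0.05, where 10.4% of all genes had. In Ezh2-null against WT it called 0 of the 9 genes, where 0.0243% of all genes were called, and 1 of the 9, Ctsa, had an unadjusted p under 0.05, where 3.74% of all genes had. In Eed-null against Ezh2-null it called 0 of 8, where 0.0778% of all genes were called, and 0 of 8 had an unadjusted p under 0.05, where 9.18% of all genes had. The median log2 difference of the 8 genes was −0.21, −0.14 and −0.06 in these comparisons, beside 0.03, −0.02 and 0.04 over all genes. Each pair of these comparisons shares a group of arrays.

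**Figure D2:**
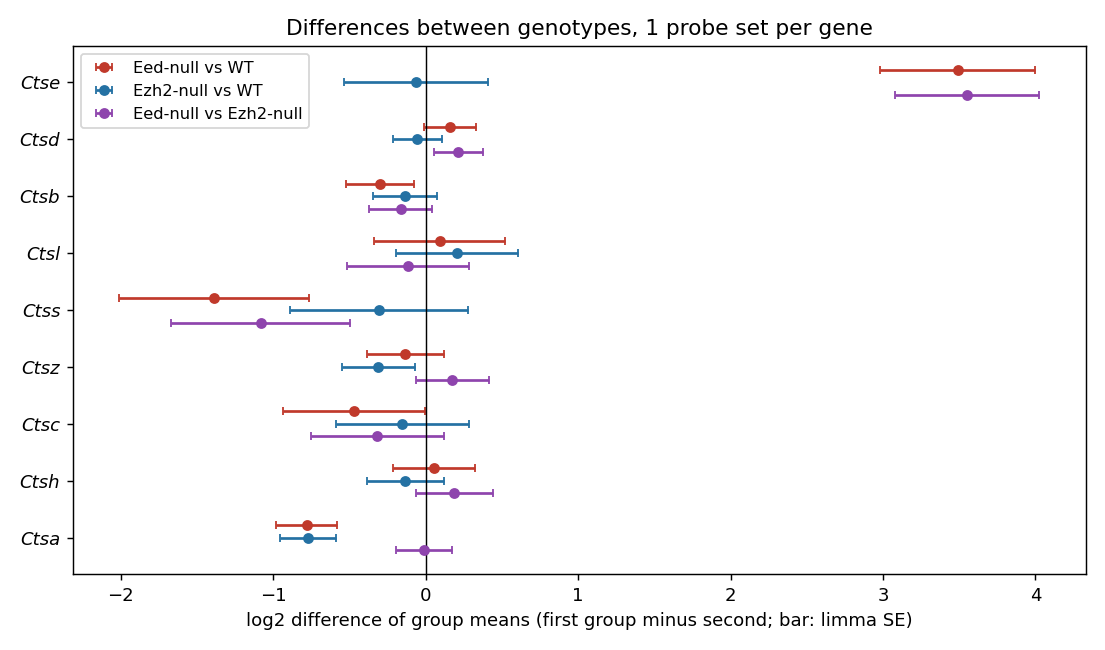
Log2 difference of group means (x axis) for each of the 9 genes (rows) in the 3 comparisons, with the limma SE as bars and 1 probe set per gene. Ctse stands at 3.49 and 3.55 in the comparisons of Eed-null arrays and at −0.06 in Ezh2-null against WT, Ctsa stands near −0.8 against WT for both null groups, and the other bars lie closer to 0 except for Ctss.

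Ctsa was the lysosomal cathepsin whose values in both null groups lay apart from those in WT. Cathepsin A trims peptides and also forms a protective complex with beta-galactosidase and the sialidase Neu1. Its log2 intensity was 9.73, 9.94 and 9.58 in Eed-null, 9.98, 9.76, 9.80 and 9.51 in Ezh2-null and 10.27, 10.55 and 10.78 in WT arrays. With this probe set, the brighter of its 2, all 7 null arrays lay below all 3 WT arrays. Among the 8 genes tested, 1 lay wholly below WT in Eed-null arrays, where 5.31% of all genes did, and 1 in Ezh2-null arrays, where 2.79% did, and it was Ctsa both times.

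The means of Ctsa were 9.75 ± 0.18 in Eed-null (SD, n = 3), 9.76 ± 0.20 in Ezh2-null (SD, n = 4) and 10.53 ± 0.26 in WT arrays (SD, n = 3). The difference was −0.78 (SE 0.20) for Eed-null against WT, a level 1.72-fold lower, with a limma adjusted p = 0.229. For Ezh2-null against WT it was −0.77 (SE 0.19), a level 1.71-fold lower, with a limma adjusted p = 0.987. Neither passed the threshold. The null groups differed by −0.01 (SE 0.19). The second probe set of Ctsa gave −0.47 for Eed-null and −0.25 for Ezh2-null against WT, the same direction at a smaller size. With it the Eed-null arrays, at 6.35 to 6.57, lay just below the WT arrays, at 6.59 to 7.34. The Ezh2-null arrays, at 6.48 to 6.82, overlapped WT. Because the same 3 WT arrays stand in both comparisons, the lower values in the null groups are not independent of each other.

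Promoter sequence was available for Ctsa, Ctsd and Ctsl among others, and the letters that TFEB, a regulator of lysosomal genes, can bind are shown because all 3 hold them. TFEB and its relatives bind the CLEAR element, whose core is the E-box CACGTG. In RefSeq windows (build GRCm38.p6) of 250 bases before to 50 after the gene start, CACGTG, a palindrome, was found in 3 of the 7 windows of 6 member genes, against 7.15% of all 32851 windows. Capitals mark the core in the following stretches, the first on the plus strand and the others on the minus strand, each written 5′ to 3′ along the gene.
Ctsa, chr2:164833741-164833772: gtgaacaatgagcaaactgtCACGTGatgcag
Ctsd, chr7:142387900-142387945: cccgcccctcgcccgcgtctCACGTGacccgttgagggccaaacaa
Ctsd, chr7:142388047-142388077: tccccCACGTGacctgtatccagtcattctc
Ctsl, chr13:64370731-64370770: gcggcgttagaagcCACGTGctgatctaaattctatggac
The core lay 12 bases before a start of Ctsa, 98 and 245 bases before the start of Ctsd and 236 bases before that of Ctsl. The same window of Ctsa held another copy just after the start. The window of the other annotated start of Ctsa held no copy. The longer palindrome, which adds GT before and AC after the core, was in 0 of the 7 member windows and in 0.326% of all windows.

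The member windows also held other letters that blood cell factors bind. AGATAA, searched on both strands as a GATA factor motif, was in the window of Ctsz, against 11.2% of all windows. GAGGAAG, an ETS motif bound by PU.1, was in those of Ctss and Ctsc, against 13.6% of all windows. The window of Ctsd held 33 CpG, an observed over expected ratio of 0.97, while the other member windows held 5 to 15 and the median over all windows was 7. These matches are descriptions of the sequence. Ctsa, Ctsd and Ctsl, which share the E-box core, had log2 differences of −0.78, 0.16 and 0.09 in Eed-null against WT. Ctse, Ctsb and Ctsh had no entry.

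Ctsl, a papain-like protease that degrades lysosomal proteins and the invariant chain, varied more within the groups than between them. Its log2 intensity was 8.92, 10.48 and 10.29 in Eed-null, 10.62, 9.77, 9.44 and 10.22 in Ezh2-null and 10.14, 9.91 and 9.36 in WT arrays. The differences were 0.09 (SE 0.43) for Eed-null against WT and 0.21 (SE 0.40) for Ezh2-null against WT. Its second probe set gave 0.44 and 1.19 in these comparisons, and neither passed the test.

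Ctss, which removes the last part of the invariant chain from class II molecules in antigen-presenting cells, had the largest spread of the 8 genes over the arrays, an SD of 1.01 on the log2 scale. Its log2 intensity was 8.69, 11.23 and 10.79 in Eed-null, 11.69, 10.48, 11.42 and 11.69 in Ezh2-null and 11.96, 12.17 and 10.73 in WT arrays. The lowest array was Eed-null replicate 1, and WT replicate 3 lay below the other WT arrays and below 2 of the 3 Eed-null arrays. The means were 10.24 ± 1.36 in Eed-null (SD, n = 3), 11.32 ± 0.58 in Ezh2-null (SD, n = 4) and 11.62 ± 0.78 in WT arrays (SD, n = 3).

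The difference of Ctss was −1.39 (SE 0.62) for Eed-null against WT, a level 2.61-fold lower, with a limma adjusted p = 0.481, and it was −1.08 (SE 0.58) for Eed-null against Ezh2-null and −0.30 (SE 0.58) for Ezh2-null against WT. None passed the threshold. Without Eed-null replicate 1 the first difference was −0.61, and without WT replicate 3 it was −1.88. With both arrays left out, an alternative added after seeing the data, it was −1.06 (SE 0.37, limma adjusted p = 0.446).

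Ctsb, an abundant lysosomal protease with both endopeptidase and exopeptidase activity, had a kept probe set that ran from 11.58 to 12.50 in Eed-null, 11.97 to 12.36 in Ezh2-null and 12.06 to 12.58 in WT arrays. The differences were −0.30 (SE 0.22) for Eed-null and −0.13 (SE 0.21) for Ezh2-null against WT, and the groups overlapped. Of its 5 probe sets, 4 gave −0.71 to −0.30 for Eed-null against WT and 1 gave 0.71 (SE 0.22, limma adjusted p = 0.304 in the fit of all probe sets). The probe sets of Ctsb thus disagreed in direction.

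Ctsz, an exopeptidase of monocytes and macrophages, stood at 11.39 to 12.44 in Eed-null, 11.54 to 11.98 in Ezh2-null and 11.70 to 12.20 in WT arrays, with differences of −0.13 (SE 0.25) and −0.31 (SE 0.24) for Eed-null and Ezh2-null against WT. Ctsh, an aminopeptidase, stood at 10.76 to 11.83 in Eed-null, 10.73 to 11.44 in Ezh2-null and 11.10 to 11.40 in WT arrays, with differences of 0.05 (SE 0.27) and −0.13 (SE 0.25) in the same comparisons. With the kept probe sets all groups overlapped for both genes, and none of these differences passed the test. The other probe sets of Ctsz gave −0.53 and −0.55 for Eed-null, and −0.52 and −0.50 for Ezh2-null, against WT. With each of them every Ezh2-null array lay below every WT array, as did 2.79% of all genes with their kept probe sets. Limma called neither in the fit of all probe sets. The second probe set of Ctsh gave 0.29 for Eed-null and −0.09 for Ezh2-null against WT, and it was not called in that fit either.

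Ctsc, also called dipeptidyl peptidase 1, activates neutrophil elastase, cathepsin G and other granule proteases. It stood at 9.53, 9.91 and 9.15 in Eed-null, 10.38, 8.48, 10.11 and 10.40 in Ezh2-null and 10.13, 10.30 and 9.56 in WT arrays, and Ezh2-null replicate 2 was the lowest of all. The differences were −0.47 (SE 0.47) for Eed-null against WT, −0.15 (SE 0.44) for Ezh2-null against WT and −0.32 (SE 0.44) for Eed-null against Ezh2-null, and none passed the test. Ctsc lies on chromosome 7 with 7 protein-coding genes between it and Eed, and Ctsd lies on the same chromosome with 783 between.

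**Figure D3:**
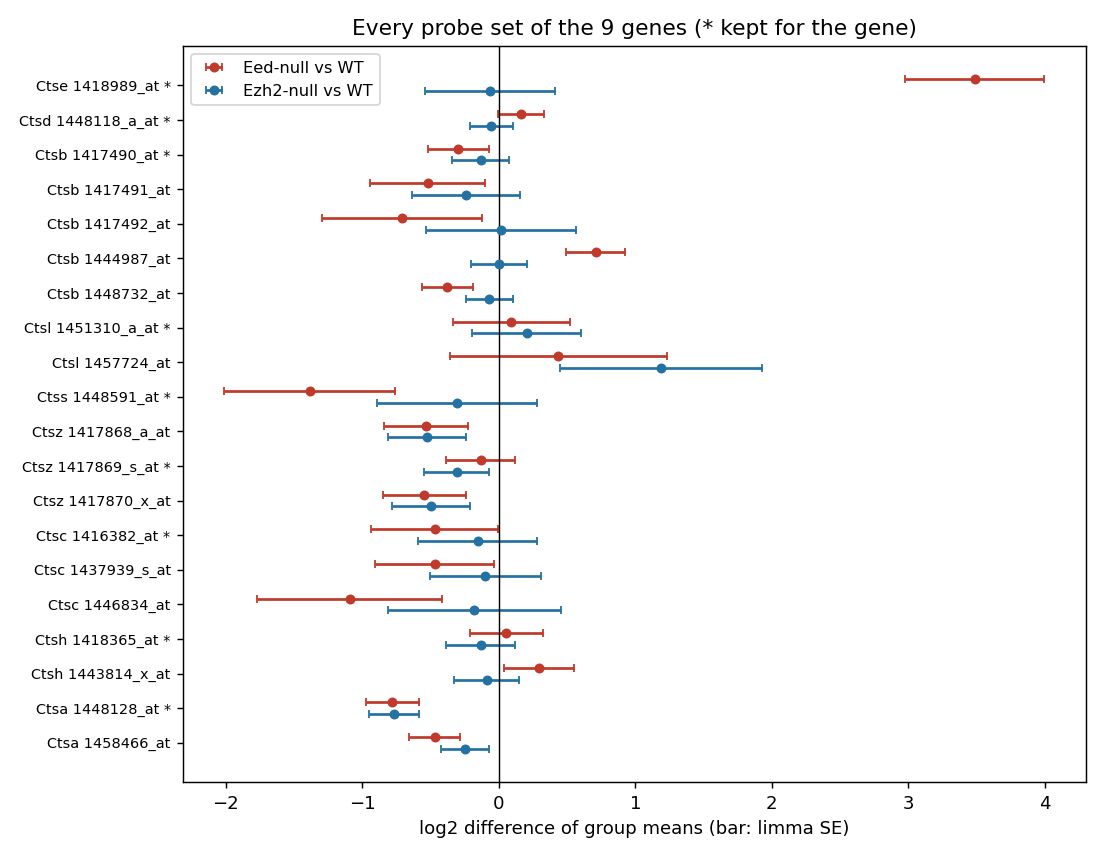
Log2 difference of group means (x axis) for all 20 probe sets of the 9 genes (rows, an asterisk marks the kept one) in Eed-null against WT and Ezh2-null against WT, with the limma SE as bars. Both probe sets of Ctsa lie below 0, and 1 of the 5 of Ctsb lies at 0.71 in Eed-null against WT while the other 4 lie below 0.

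The levels of some cathepsins followed those of monocyte markers from array to array. The mean log2 intensity of 19 monocyte and macrophage markers was 7.95, 8.82 and 8.57 in Eed-null, 9.09, 8.42, 8.74 and 8.92 in Ezh2-null and 9.23, 9.29 and 8.55 in WT arrays. Of the 19 markers, 13 were lower in Eed-null than in WT arrays by any amount, beside 9298 of all 20564 genes. None passed the limma test, where 0.131% of all genes did, and 3 had an unadjusted p under 0.05, where 10.4% of all genes had. The median difference of the 19 markers was −0.31, or −0.17 when Eed-null replicate 1 was left out and −0.63 when WT replicate 3 was. The relation to these markers was noticed in the data and then computed for the 9 genes, so it is a description of these arrays. Its p-values were adjusted over 9 relations, which does not cover the choice of these markers after seeing the data. They are therefore not a test of the relation.

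Ctss had the highest correlation of the 9 genes with the markers, with r = 0.964 over the 10 arrays (two-sided permutation p = 2e-05, adjusted 0.00018) and rho = 0.976 (permutation p = 1e-05, the smallest 100000 permutations can give, adjusted 9e-05). Without the arrays farthest from the median of the markers, Eed-null replicate 1 and WT replicate 2, r was 0.959, and after taking each genotype's mean away it was 0.958. Ctsb gave r = 0.903 (permutation p = 0.00053, adjusted 0.00238) and rho = 0.855 (permutation p = 0.00301, adjusted 0.0135), with r = 0.721 without those arrays and 0.896 within genotypes. Only the kept probe set of Ctsb was used. The relation of its other probe sets, which disagreed in direction between genotypes, was not computed. For both genes r was thus also high within genotypes, but no p was computed there. The permutations moved arrays across genotypes, so their p-values do not set the relation within genotypes apart from differences between them. The part of the markers in the differences of Ctss and Ctsb between genotypes was not tested.

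Ctsc gave r = 0.682 (permutation p = 0.0296, adjusted 0.0602) and rho = 0.818 (permutation p = 0.00567, adjusted 0.017), so 1 adjusted p lay under 0.05. Its r was 0.817 without the same arrays and 0.646 within genotypes. Ctsl gave r = 0.671 (permutation p = 0.0334, adjusted 0.0602) and rho = 0.564 (permutation p = 0.0966, adjusted 0.145), and Ctsh r = 0.579 (permutation p = 0.0785, adjusted 0.118) and rho = 0.673 (permutation p = 0.0384, adjusted 0.0691). Neither gene had an adjusted p under 0.05, while r within genotypes, for which no p was computed, was 0.873 for Ctsl and 0.81 for Ctsh.

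Ctsz, Ctsd and Ctsa gave r = 0.369, 0.232 and 0.354 and rho = 0.297, 0.345 and 0.394, with adjusted permutation p-values of 0.357, 0.519 and 0.357 for r. Within genotypes r was 0.408 for Ctsz and 0.695 for Ctsd. For Ctsa, r was 0.062 without the farthest arrays and −0.146 within genotypes, so within genotypes it was not higher where the markers were. For Ctse the Eed-null arrays form a cluster of their own, so its relation was computed over the 7 Ezh2-null and WT arrays. There r was 0.903 (exact permutation p = 0.00933, adjusted 0.028) and rho 0.821 (exact permutation p = 0.0341, adjusted 0.0691). Without Ezh2-null replicate 2 and WT replicate 3, r was 0.656, so it rests in part on those arrays, and it was 0.955 within genotypes. The Eed-null arrays were left out because of their Ctse level, so these p-values describe the 7 arrays. They do not test whether Ctse followed the markers. The 3 Eed-null arrays, with markers at 7.95 to 8.82, held Ctse at 10.25 to 10.91.

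**Figure D4:**
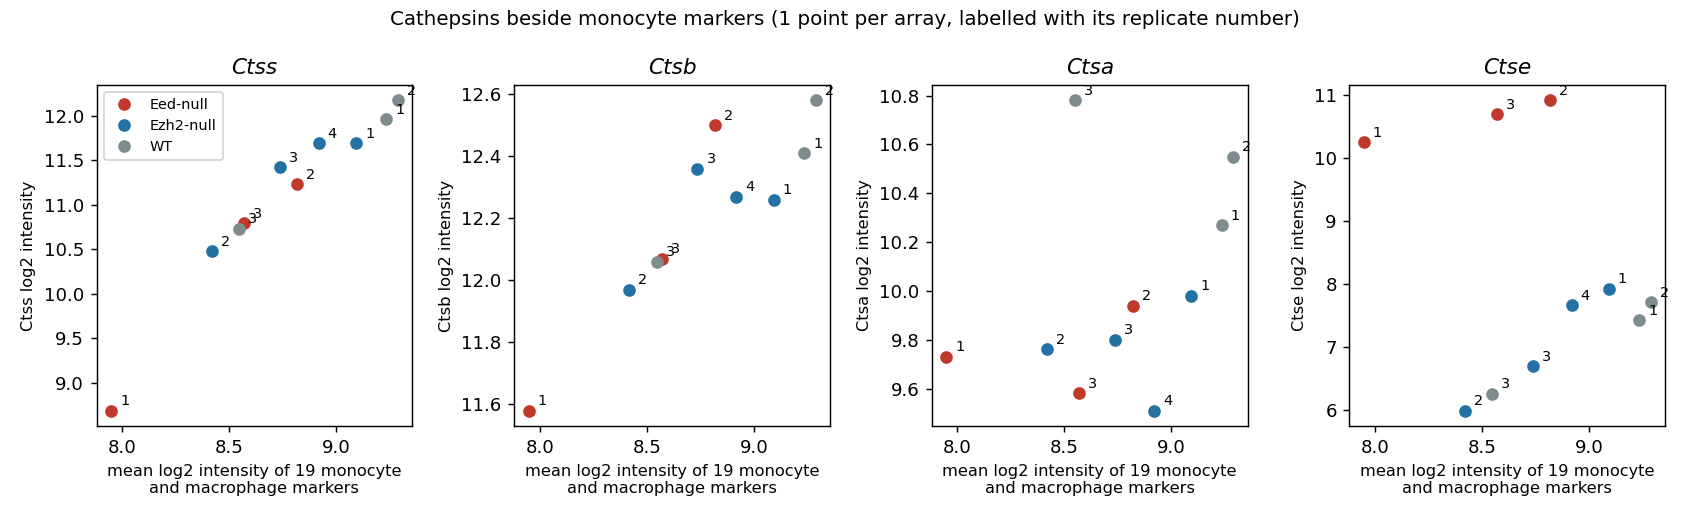
Log2 intensity of cathepsin genes (y axis, 1 gene per panel) against the mean log2 intensity of 19 monocyte and macrophage markers (x axis), with 1 point per array coloured by genotype and numbered by replicate. Ctss and Ctsb are higher where the markers are higher over the 10 arrays, Ctsa has the 3 WT arrays on top, and for Ctse the 3 Eed-null arrays lie above the other 7.

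The genes nearest in profile to Ctss were Ifi203, an interferon-inducible gene, at a root mean square difference of 0.346, Ahnak, a scaffold protein, at 0.354, Hpse, a heparan sulfate-degrading enzyme, at 0.414, Ms4a4c, a membrane protein of myeloid cells, at 0.421, and Mpeg1, the macrophage perforin-like protein, at 0.430. The median over all genes was 0.998. The invariant chain that Ctss cuts belongs to the class II pathway. All 7 class II presentation genes measured had negative differences in Eed-null against WT, with a median of −1.12, beside 9298 negative of all 20564 genes. Of the 7, 3 had an unadjusted p under 0.05, where 10.4% of all genes had. The median of the 7 was −0.76 without Eed-null replicate 1 and −1.15 without WT replicate 3. In Ezh2-null against WT it was −0.08, or −0.48 without WT replicate 3. H2-Ab1, a class II chain, stood at 8.51, 8.86 and 8.42 in Eed-null, 11.02, 7.81, 10.18 and 9.99 in Ezh2-null and 11.24, 10.42 and 9.64 in WT arrays, a difference of −1.84 (SE 0.68, limma adjusted p = 0.399) for Eed-null against WT. Limma called none of the 7 in Eed-null against WT, where 0.131% of all genes were called.

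The other genes of the cathepsin system were read as lists, here and in the paragraphs that follow. Their counts stand beside these shares of all 20564 genes. Limma called 0.131% in Eed-null and 0.0243% in Ezh2-null against WT, and 10.4% and 3.74% had an unadjusted p under 0.05. Differences were positive for 11266 genes in Eed-null and 9191 in Ezh2-null against WT, and negative for 9298 and 11373. Of 12 genes for the maturation, sorting and partners of cathepsins, 7 had negative and 5 positive differences in Eed-null against WT, with a median of −0.26, and limma called none while 4 had an unadjusted p under 0.05. That median was 0.03 without Eed-null replicate 1 and −0.14 without WT replicate 3. Psap, the precursor of the saposins, was at −1.05 (SE 0.37, adjusted p = 0.374) and Nagpa, which uncovers the mannose 6-phosphate tag, at −0.80 (SE 0.19, adjusted p = 0.205). Gnptg, a subunit of the enzyme that adds the tag, was at 0.71 (SE 0.26, adjusted p = 0.392), so these genes of the tagging steps had differences of opposite sign. In Ezh2-null against WT the median of the list was −0.06 (−0.17 without WT replicate 3). Igf2r, a mannose 6-phosphate receptor, was highest there at 0.67 (SE 0.65), but at −0.28 without WT replicate 3, the lowest array for it, so its sign rests on that array.

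Cathepsin inhibitors, 8 of them measured, had a median of −0.09 in Eed-null and 0.04 in Ezh2-null against WT. Limma called none in either comparison, with 0 and 1 genes at an unadjusted p under 0.05. Cst7, an inhibitor of cathepsin C and related proteases, stood at 5.74, 7.36 and 5.56 in Eed-null, 7.19, 8.64, 7.09 and 7.68 in Ezh2-null and 7.36, 5.63 and 9.99 in WT arrays, so its difference of −1.44 for Eed-null against WT leaned on WT replicate 3, without which it was −0.27. Without that array the medians of the inhibitors were −0.14 and 0.12, and without Eed-null replicate 1 the first was −0.04. Stfa2l1, a stefin, was at 1.18 (SE 0.39, adjusted p = 1.00) in Ezh2-null against WT. The 5 serine proteases that cathepsin C activates had medians of −0.10 and 0.08 in the same comparisons, the first at 0.08 when Eed-null replicate 1 was left out and −0.01 when WT replicate 3 was, with none called and none at an unadjusted p under 0.05.

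Among 10 lysosomal membrane genes, 8 had negative differences in Eed-null and 7 in Ezh2-null against WT, with medians of −0.29 and −0.23, none called and 2 at an unadjusted p under 0.05 in each. The first median was −0.13 without Eed-null replicate 1. Ctns, the cystine transporter, stood at 6.41, 6.53 and 6.43 in Eed-null, 6.57, 6.62, 6.22 and 6.84 in Ezh2-null and 7.12, 7.19 and 7.55 in WT arrays. Like the kept probe set of Ctsa, it lay below every WT array in all 7 null arrays, with differences of −0.83 (SE 0.17, limma adjusted p = 0.157) and −0.72 (SE 0.16, limma adjusted p = 0.930). Nagpa, Atp6v1b2 and the class II presentation gene Ifi30 did so as well. Wholly below WT lay 5.31% of all genes in Eed-null and 2.79% in Ezh2-null arrays, and the share in both at once was not computed. The 29 other lysosomal hydrolases had medians of −0.19 and −0.20, with none called and 2 and 1 at an unadjusted p under 0.05 in Eed-null and Ezh2-null against WT, and the first median was 0.0037 without Eed-null replicate 1.

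The 17 subunits of the proton pump that acidifies lysosomes had medians of 0.09 in Eed-null and −0.05 in Ezh2-null against WT, with none called and 4 and 1 at an unadjusted p under 0.05. Of the 17, 10 were positive and 7 negative in Eed-null against WT, 1 lay wholly above WT, where 7.49% of all genes did, and 3 wholly below, where 5.31% did. The 3 were Atp6v1h, Atp6v1c1 and Atp6v1b2, at −0.94, −0.75 and −0.64. The median was 0.04 without WT replicate 3. The 4 MiT/TFE factors, the family of TFEB, all had negative differences in Eed-null against WT, with a median of −0.22 (−0.35 when Eed-null replicate 1 was left out, −0.51 when WT replicate 3 was) and Tfec lowest at −0.59 (−0.39 without WT replicate 3), none called and 1 at an unadjusted p under 0.05.

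Other relatives of the 9 genes had smaller differences than Ctse, but Ctse was chosen for its level in the Eed-null arrays. That order was thus largely set by the choice. The 5 other pepsin-family proteases measured had positive differences in Eed-null against WT, with a median of 0.14 and Napsa, napsin A, highest at 0.34 (SE 0.16, limma adjusted p = 0.501). The 4 other papain-like cathepsins had a median of 0.42, with Ctso at 0.64 (1.09 without Eed-null replicate 1), Ctsw at 0.46 and Ctsf at 0.39, none called and 2 at an unadjusted p under 0.05. The 8 placental cathepsins, a rodent family used in the placenta, had a median of 0.03. In Ezh2-null against WT these lists had medians of −0.04, 0.04 and −0.0013, and limma called no gene of them, with 0 at an unadjusted p under 0.05.

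**Figure D5:**
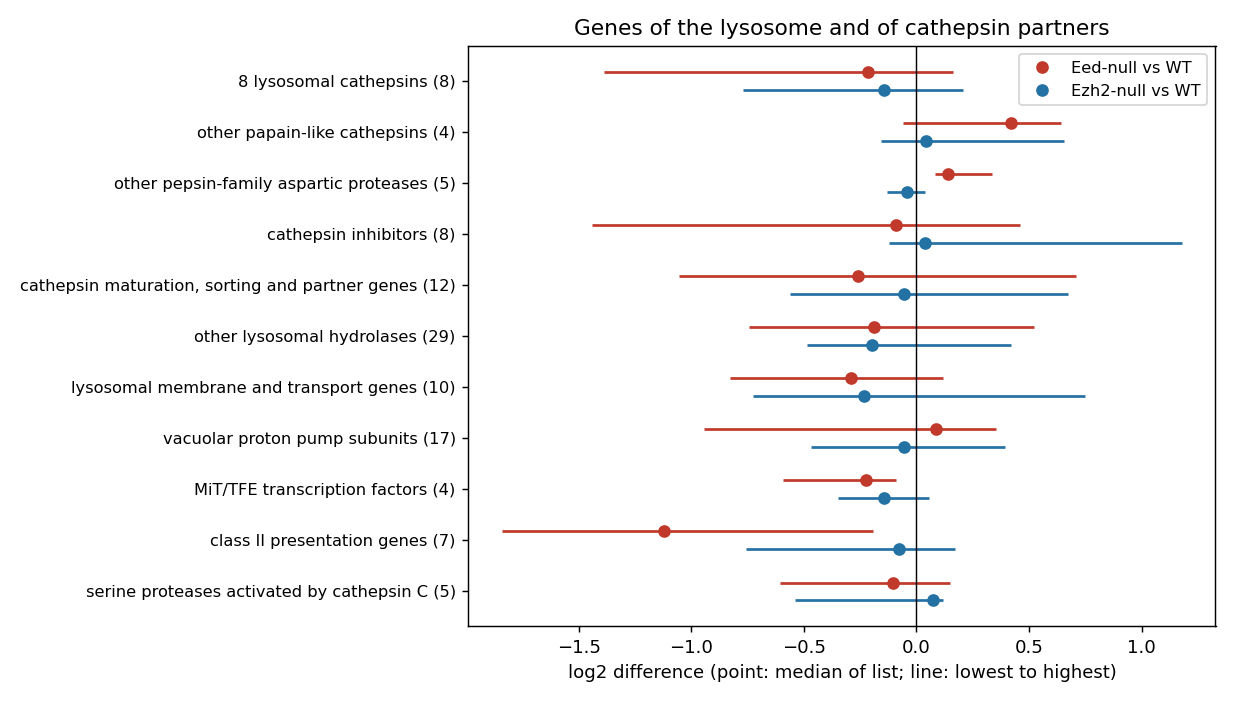
Median log2 difference (points) and the lowest and highest gene (lines) of each gene list (rows, with the number of genes measured) in the comparisons drawn, on the x axis in log2 units. The class II genes have the lowest median in Eed-null against WT, −1.12, and no other list of the lysosome has a median beyond 0.42 in size.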

How the data were processed

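RNA of sorted leukaemic cells was measured on arrays with 45101 probe sets. The authors deposited linear intensity values, which per the submitters' processing notes came from RMA, its version being not given in the sources used here. A second table of deposited intensity values, adjusted with ComBat per the file header, covered the WT and Ezh2-null arrays and served as an alternative, and its 9 columns from another series were not used here. Log2 was taken after a floor of 1. Of the probe sets with 1 symbol, the one with the highest mean was kept per gene, which left 20564 genes. Limma 3.58.1 (R 4.3.3) fitted 1 mean per genotype over all 10 arrays, with eBayes with trend, two-sided tests and Benjamini-Hochberg adjustment over all genes, and a gene was called at an adjusted p under 0.05. Script steps were tested on simulated data. The members and lists were chosen with earlier results of these data known. Genes of lists were named where called or among the 3 largest differences, and 5 neighbours on each side of Ctse were read. Profiles were compared by root mean square difference, and correlations by permutation in Python. Alternatives covered the scaling, offset, filter on dim probe sets, summary of probe sets, trend, groups in the fit, replicate numbers as a block and each array left out.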

Additional observations from a re-analysis of the deposited data

Results flagged for a closer look

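In groups of 4 arrays, the gap of an extreme array to the next was read for each of the 20 cathepsin probe sets, and 3 stood past the 95% critical value of Dixon's test, 0.829. Chance alone gives about 1 in 20 groups. All 3 were the lowest value of Ezh2-null replicate 2. Ctsc stood at 8.48 there with the kept probe set and at 6.80 with another, which measure the same gene, and Ctsb stood at 9.58 with 1 of its 5 probe sets. The same array had the lowest mean of 19 monocyte markers of its group, 8.42 against 8.74 to 9.09, and its part in these values was not tested.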

How the results depend on the processing

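None of the tested cathepsin differences was called under any alternative run, and Ctse in Eed-null arrays was not tested, with 555 values recomputed from 27 differences and 32 of them reversed in sign. Called genes numbered 27 in Eed-null against WT, 5 in Ezh2-null against WT and 16 in Eed-null against Ezh2-null. With the replicate block these were 16, 0 (655 at an unadjusted p under 0.05) and 4 by limma, but the samples share only a number: same-number correlations ran from −0.23 to 0.36, and not every array correlated best with its own number. With only the groups compared, 1 gene was called in Eed-null against WT. Quantile normalization gave 2 and eBayes without trend 3 in Ezh2-null against WT. The mean of probe sets gave 28 in Eed-null against Ezh2-null, and each probe set separately gave 43, 10 and 25. Leaving out 1 array gave 12 to 42, 0 to 4 and 13 to 36, and without both WT replicate 3 and Eed-null replicate 1 the last was 44.

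By probe set, Ctsb reversed to 0.71, 0.0025 and 0.71 with 1 of its probe sets in the 3 comparisons, and to 0.018 with another in Ezh2-null against WT, and Ctsz to −0.0071 and −0.048 in Eed-null against Ezh2-null. Ctsa reversed to 0.046 under quantile normalization there. Without both arrays, Ctsz was 0.21 in Eed-null against WT, Ctsl −0.016 in Ezh2-null against WT, and Ctsb 0.071 and Ctsl 0.37 in Eed-null against Ezh2-null. Leaving out 1 array turned small differences round. In Eed-null against WT, Ctsl ran from −0.20 to 0.58, Ctsz from −0.43 to 0.10 and Ctsh from −0.23 to 0.30. In Ezh2-null against WT, Ctse ran from −0.50 to 0.30, Ctsd from −0.14 to 0.012, Ctsl from −0.016 to 0.40 and Ctsc from −0.37 to 0.30. In Eed-null against Ezh2-null, Ctsb ran from −0.39 to 0.071, Ctsl from −0.40 to 0.37, Ctsz from −0.12 to 0.41, Ctsh from −0.10 to 0.43 and Ctsa from −0.10 to 0.075. Apart from array and probe set choices, the cause was not tested. The adjusted p of Ctsa ranged from 0.166 to 0.591 in Eed-null and from 0.550 to 1.00 in Ezh2-null against WT.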

Other observations

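Granulocyte markers, which no comparison of the cathepsins used, were read as well: all 12 measured had positive log2 differences in Eed-null and in Ezh2-null against WT, with medians of 0.54 and 0.61. Of all 20564 genes, 11266 and 9191 were positive in these comparisons. Limma called none of the 12, where 0.131% and 0.0243% of all genes were called. In each comparison 1 of the 12 had an unadjusted p under 0.05, where 10.4% and 3.74% of all genes had. The mean of the 12 markers was 13.20, 12.28 and 12.78 in Eed-null, 13.05, 12.41, 12.72 and 13.05 in Ezh2-null and 12.75, 12.63 and 11.01 in WT arrays, so the groups overlapped apart from WT replicate 3. Without that array the medians were 0.04 and 0.11, with 7 and 10 of the 12 positive, so the higher level in the null groups rests largely on it.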
